A study of Homo sapiens with 4 samples.

Results

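The CC chemokine ligand genes CCL2, CCL5, CCL7, CCL20, CCL26 and CCL28 were taken from the gene table by their symbols, which gave 6 of the 57815 genes listed. The table came from RNA-Seq of MDA-MB-231, a human triple-negative breast cancer cell line, and of LM2-4175, a cell line isolated from MDA-MB-231 that metastasizes to the lung. Each cell line was grown untreated in DMEM with serum and sequenced in 2 libraries, 4 in all, and the comparison between them asked which genes differ in the lung-metastatic cells. The authors deposited 1 FPKM per gene and cell line, in which both libraries were combined, with a lower and an upper bound. FPKM counts sequenced fragments relative to transcript length and to the number of mapped fragments, so that levels of genes of different length can be compared. Each group is therefore a single cell line with a single value, and what belongs to lung metastasis cannot be told apart from any other difference between these cultures.

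CC chemokines are small secreted proteins with a pair of adjacent cysteines near the start of the mature protein. They bind G protein-coupled receptors on leukocytes and other cells and direct cell movement along a gradient. CCL2 and CCL7 attract monocytes, CCL5 attracts T cells and monocytes, CCL26 attracts eosinophils through CCR3, CCL20 is a ligand of CCR6, and CCL28 is a mucosal epithelial chemokine that binds CCR10 and CCR3. Genes of this family are well-known targets of inflammatory signalling in epithelial and tumour cells.

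CCL20 and CCL28 were higher in LM2-4175, and no CC ligand gene was called lower. To be called, a gene needed a mean of 0.5 FPKM or more, a difference of 1.5-fold or more on the scale of FPKM + 1, and bounds that were apart between the cell lines. Of the 6 genes, 4 passed the filter on mean FPKM, and 2 of these 4 were called higher, where 4.67% of all 13911 genes tested were called higher and 4.61% lower, or 9.27% in either direction. CCL5 was too low for the filter, and CCL7 was listed at 0 in both cell lines. CCL20 passed the filter only through its level in LM2-4175, so the filter itself favoured its call. Without the filter, the 5 of these genes listed above 0 had a median log2 change of 0.42, 3 with a higher and 2 with a lower value in LM2-4175, beside a median of 0.00 over all 26635 genes above 0. These counts compare pooled libraries and have no replicate check.

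The sequences before the start sites of the 2 called genes, and of CCL26 as a gene that was tested and not called, are shown because they are where factors that switch chemokine genes on are known to bind. They are the 250 bases upstream of RefSeq start sites (taken from windows of GRCh38.p14 and placed on GRCh37 by an exact match), read 5′ to 3′ on the strand of the gene. Capitals mark matches to a form of the NF-kB site (GGGAA, any 3 bases, CC) and to the TATA box letters TATAAA, on either strand. RefSeq windows were found for 4 of the 6 genes and were missing for CCL2 and CCL5.
CCL20, chr2:228678308-228678557, plus strand: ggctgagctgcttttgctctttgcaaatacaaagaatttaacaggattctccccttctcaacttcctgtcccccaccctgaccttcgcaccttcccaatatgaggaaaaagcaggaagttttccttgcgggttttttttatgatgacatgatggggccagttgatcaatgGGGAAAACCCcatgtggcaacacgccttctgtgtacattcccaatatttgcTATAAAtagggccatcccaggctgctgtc
CCL28, outer start, chr5:43412494-43412743, minus strand: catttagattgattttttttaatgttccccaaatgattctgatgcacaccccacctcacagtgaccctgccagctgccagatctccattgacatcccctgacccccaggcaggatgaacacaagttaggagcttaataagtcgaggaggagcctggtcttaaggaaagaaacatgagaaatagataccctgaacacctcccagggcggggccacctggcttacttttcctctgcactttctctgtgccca
CCL28, inner start, chr5:43397240-43397489, minus strand: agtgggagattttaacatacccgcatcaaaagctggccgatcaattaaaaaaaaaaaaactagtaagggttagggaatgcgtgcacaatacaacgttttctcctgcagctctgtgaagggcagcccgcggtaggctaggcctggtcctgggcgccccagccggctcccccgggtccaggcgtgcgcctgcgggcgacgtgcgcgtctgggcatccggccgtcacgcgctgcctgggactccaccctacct
CCL26, chr7:75419065-75419314, minus strand: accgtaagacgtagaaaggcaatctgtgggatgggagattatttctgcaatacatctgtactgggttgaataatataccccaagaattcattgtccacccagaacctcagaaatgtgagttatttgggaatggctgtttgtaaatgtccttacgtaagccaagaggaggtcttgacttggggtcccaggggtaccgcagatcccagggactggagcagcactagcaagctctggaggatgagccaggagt
The CCL20 window held 1 NF-kB match, 80 to 71 bases before the start, and 1 TATA box, 29 to 24 bases before it. Of all 35116 RefSeq windows of this length, 6.02% held the NF-kB letters and 10.7% the TATA box letters. Neither window of CCL28 and not that of CCL26 held either match, which says only that these letters are not in these 250 bases. The CCL26 window from 75419065 to 75419214 lies inside the locus listed for CCL26, so only the rest is outside that locus. The window of CCL7 held a TATA box 30 to 25 bases before its start, and an AP-1 match (TGANTCA, found in 6.57% of windows) 51 to 45 bases before it. A match to the C/EBP letters TTGCNNAA (9.05% of windows) lay in the CCL26 window, 208 to 201 bases before the start. The STAT6 letters (TTC, any 4 bases, GAA, in 5.38% of windows) matched in none of the 5 windows of these genes. The letters of the motifs were chosen after the windows had been read, and a match is a description of sequence, not of binding.

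CCL20, whose product recruits CCR6-bearing dendritic cells and lymphocytes, showed the largest change of the 6 genes. The gene (ENSG00000115009) lies on chromosome 2 of hg19 from 228678558 to 228682272 on the plus strand. MDA-MB-231 cells gave 0.1215 FPKM (bounds 0 and 0.3261), against 5.762 FPKM for LM2-4175 cells (bounds 3.753 and 7.77). The level in MDA-MB-231 was thus not separated from 0, while that in LM2-4175 lay well above it. The log2 change on the scale of FPKM + 1 was 2.59, the 77th highest of the 13911 genes tested. The ratio of the FPKM was 47.4, and because its denominator is near 0 the nearest bounds are the firmer guide, with LM2-4175 still 11.5-fold higher. Among the genes tested, CCL20 moved from the 0.791 percentile of expression in MDA-MB-231 to the 34.4 percentile in LM2-4175. The filter kept CCL20 only through LM2-4175 and removed most genes that are low in both lines. The low percentile in MDA-MB-231 and the size of the move therefore depend on the filter. A level under 1 FPKM in MDA-MB-231 with at least 5 FPKM in LM2-4175 was found for 61 genes tested, CCL20 among them.

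CCL28, the ligand of CCR10 and CCR3 made by mucosal epithelium, was the highest CC ligand gene in both cell lines. It lies on chromosome 5 from 43376747 to 43412493 on the minus strand (ENSG00000151882). MDA-MB-231 cells gave 3.816 FPKM (bounds 2.481 and 5.151), against 7.836 FPKM for LM2-4175 cells (bounds 5.422 and 10.25). The ratio was 2.05, and the log2 change 0.88. The upper bound of MDA-MB-231 and the lower bound of LM2-4175 were only 1.05-fold apart, so the call stands close to its limit. On the scale of FPKM + 1 the difference was 1.83-fold, so with a threshold of 2-fold on that scale CCL28 was not called. Its outer start at the end of the locus is the one shown first among the CCL28 sequences above.

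**Figure D1:**
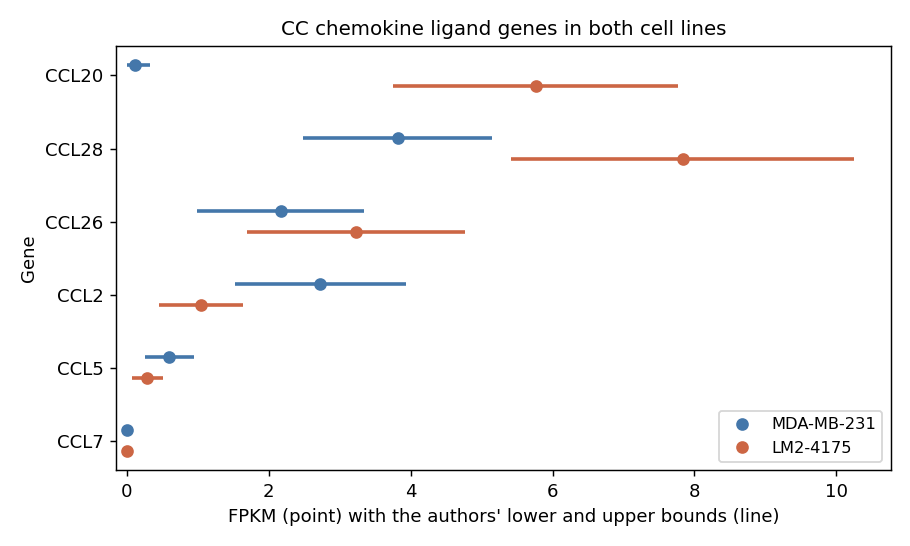
FPKM of the 6 CC ligand genes (points, horizontal axis) in MDA-MB-231 (blue) and LM2-4175 (orange), 1 value per cell line, with the authors' lower and upper bounds as lines. The lines are apart for CCL20 and CCL28 and overlap for CCL26, CCL2 and CCL5, and CCL7 stands at 0 in both.

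The eosinophil chemokine gene CCL26 (ENSG00000006606, chromosome 7, 75398851 to 75419214, minus strand) had a higher value in LM2-4175 but was not called. MDA-MB-231 cells gave 2.168 FPKM (bounds 0.9912 and 3.344), against 3.232 FPKM for LM2-4175 cells (bounds 1.701 and 4.764). The log2 change was 0.42 and the bounds overlapped, so a difference was not detectable with these bounds. CCL24, the other eosinophil chemokine gene next to it, stood at 0.5961 FPKM (0.1093 to 1.083) in MDA-MB-231 cells and 0.8465 FPKM (0.2423 to 1.451) for LM2-4175, a log2 difference of 0.21 without a call. CCL24 was the only CC ligand gene outside the 6 that passed the filter.

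CCL2 and CCL5 had lower values in LM2-4175 without a call, and CCL7 was listed at 0 in both cell lines. CCL2 (ENSG00000108691, chromosome 17, 32581900 to 32584222, plus strand) gave 2.727 FPKM in MDA-MB-231 cells (bounds 1.519 and 3.935) against 1.045 FPKM for LM2-4175 cells (bounds 0.4588 and 1.632). The value was 2.61-fold lower in LM2-4175, with a log2 change of -0.87 on the scale of FPKM + 1. The bounds overlapped between 1.519 and 1.632 FPKM, so CCL2 was not called, although it passed with the fold alone, a rule by which 10.3% of all genes tested were higher and 11.8% lower, and with a difference of over 2 standard errors. CCL7 (ENSG00000108688, chromosome 17, 32597240 to 32599261, plus strand), the gene that follows CCL2 in the same cluster, was listed at 0 with bounds of 0 in both cell lines. CCL5, which encodes a ligand of CCR1 and CCR3, gave 0.6024 FPKM in MDA-MB-231 cells (bounds 0.2624 and 0.9425) against 0.2891 FPKM for LM2-4175 cells (bounds 0.07301 and 0.5052). Its mean of 0.4458 FPKM was below the filter, the log2 change was -0.31 and the bounds overlapped. CCL5 (ENSG00000161570) lies on chromosome 17 from 34198495 to 34207797 on the minus strand in GENCODE 44, where its identifier has since been replaced, and the table gives it a wider locus that is merged with other genes.

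**Figure D2:**
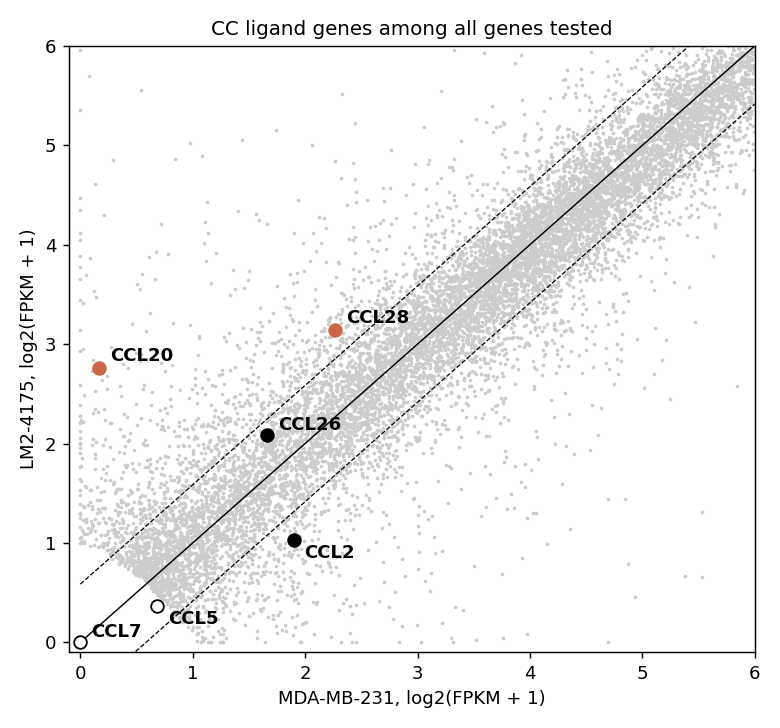
log2(FPKM + 1) in MDA-MB-231 (horizontal axis) against LM2-4175 (vertical axis) for the genes tested with values under 6 (grey) and the 6 CC ligand genes (orange, called higher; black, not called; open, not tested). The solid line marks equal values and the dashed lines a 1.5-fold change on this scale; CCL20 and CCL28 lie above the upper dashed line, and CCL2 lies below the lower one with overlapping bounds.

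All 6 genes stayed below the median level of the genes tested, which was 11.9 FPKM in MDA-MB-231 and 11.6 FPKM in LM2-4175. In MDA-MB-231 the order was CCL28, CCL2, CCL26, CCL5, CCL20 and CCL7. The bounds of CCL28, CCL2 and CCL26 overlapped between neighbours in this order, those of CCL26 and CCL5 did not, and CCL5 and CCL20 overlapped again. In LM2-4175 the order was CCL28, CCL20, CCL26, CCL2, CCL5 and CCL7. There CCL20 overlapped with CCL28 above it and with CCL26 below it, CCL26 was apart from CCL2, and CCL2 overlapped with CCL5. CCL2 thus went from the 22.6 percentile of the genes tested to the 9.29 percentile, CCL28 from 27.6 to 40.8 and CCL26 from 19.5 to 24.4.

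Apart from CCL24, the other 22 CC ligand genes of the human family were at or near 0. Of the 22, 12 were listed at 0 in both cell lines and 9 others reached at most 0.045 FPKM in MDA-MB-231 and 0.0743 FPKM in LM2-4175, with a lower bound of 0 in both. The 9 are CCL3, CCL3L1, CCL14, CCL15, CCL16, CCL18, CCL22, CCL25 and CCL27, and the remaining gene is CCL24. An exact 0 in this table can also be a failed estimate, although just 8 of the 57815 genes listed had a status other than OK. Reads of near-identical copies such as CCL3 and CCL3L1 could be split between them in ways that are not stated.

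Summed over all 28 CC ligand genes, the level was 10.1 ± 1.1 FPKM in MDA-MB-231 and 19.3 ± 1.8 FPKM in LM2-4175 (standard errors from the bounds), a ratio of 1.90. The log2 ratio of the sums was 0.93 ± 0.21. It was 0.43 when CCL20 was left out and 1.30 when CCL2 was left out. The sum was made up differently in the cell lines. CCL20 held 1.20% of it in MDA-MB-231 and 29.9% in LM2-4175, while CCL2 held 26.9% and 5.42%. The share of CCL28 was 37.7% and 40.6%, and that of CCL26 21.4% and 16.8%. The 16 CXC ligand genes, which encode the other large chemokine family, summed to 18.7 FPKM in MDA-MB-231 and 532 FPKM in LM2-4175. Of these, 5 were tested, and CXCL1, CXCL2, CXCL3 and IL8, which encode neutrophil attractants, were called higher. The share called higher over all genes tested was 4.67%. The difference between the families was not tested.

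**Figure D3:**
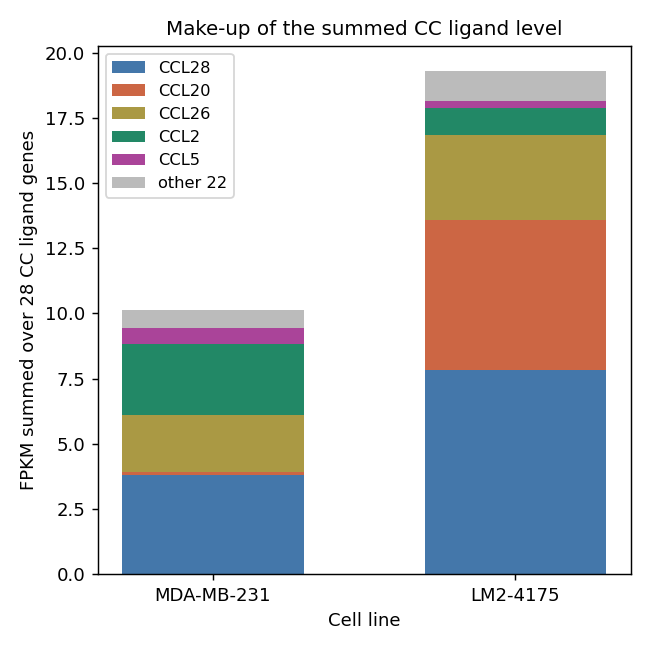
FPKM summed over the 28 CC ligand genes (vertical axis) in each cell line (horizontal axis), with the part of each gene in its own colour. The sum is 10.1 FPKM in MDA-MB-231 and 19.3 FPKM in LM2-4175, and CCL20 takes 1.20% of the first bar and 29.9% of the second.

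The receptors of these ligands were mostly near 0 in the same cells. Of 9 CC receptor genes, only CCR1 passed the filter, and it was called higher, as were 4.67% of all genes tested. CCR1, a receptor for CCL5 and CCL7, gave 0.5567 FPKM in MDA-MB-231 cells (bounds 0.2967 and 0.8167) against 4.744 FPKM for LM2-4175 cells (bounds 3.409 and 6.078). The log2 change was 1.88. The table places CCR1 in a merged locus with CCR3, which had 0.005072 and 0.08272 FPKM. CCR6, the receptor of CCL20, stood at 0 for MDA-MB-231 cells and reached 0.004751 FPKM for LM2-4175 cells, where its upper bound was 0.07131. CCR10, the receptor of CCL28, had 0.1301 and 0.2845 FPKM, and its lower bounds were 0. CCR2, which binds CCL2 and CCL7, had 0.1106 and 0.02781 FPKM, also with lower bounds of 0. CCR7, whose ligands CCL19 and CCL21 were listed at 0, went from 0.19 FPKM (0.02598 to 0.354) to 0.7844 FPKM (0.4349 to 1.134) with a mean just below the filter. Of the atypical receptors, which bind chemokines without classical signalling, ACKR2 and ACKR4 had at most 0.06016 FPKM and the gene listed as DARC stood at 0. The related CCRL2 was the highest of the group, at 19.79 FPKM (14.57 to 25.02) for MDA-MB-231 cells against 11.75 FPKM (8.448 to 15.06) for LM2-4175 cells. Its bounds overlapped, and the log2 change of -0.71 was not called.

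**Figure D4:**
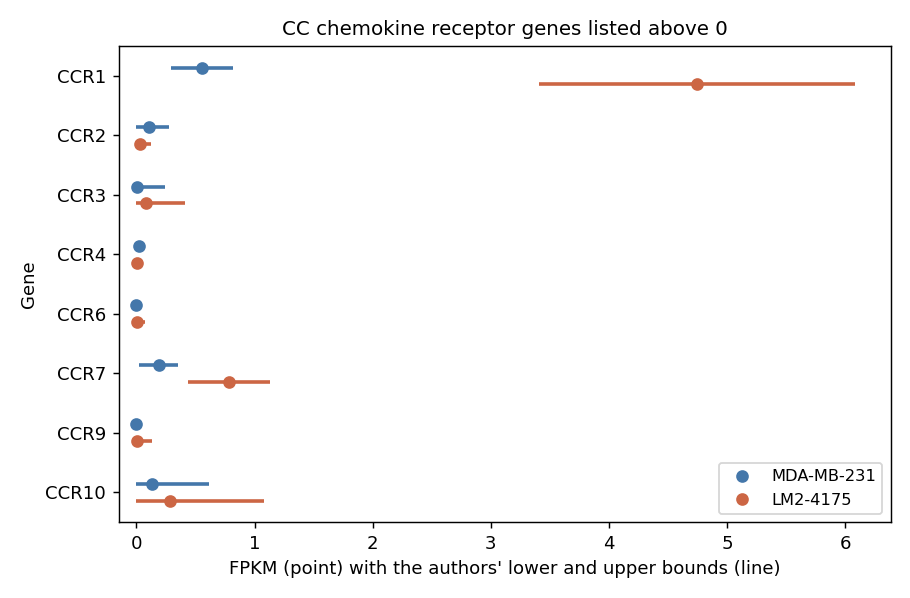
FPKM of the 8 CC receptor genes listed above 0 in at least 1 cell line (points, horizontal axis) in MDA-MB-231 (blue) and LM2-4175 (orange), with the authors' bounds as lines. CCR1 rises from 0.5567 to 4.744 FPKM with bounds apart, and of the other receptors only CCR7 has lower bounds above 0.

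None of the protein-coding genes tested near CCL20 or CCL28 was called. Within 500 kb of CCL20, 3 genes were tested, and their log2 changes of 0.11 to 0.36 had no call. Around CCL28, all 6 genes tested had lower values in LM2-4175, with log2 changes of -0.74 to -0.15, a median of -0.28 and no call. Around CCL26, 7 of 8 genes tested had lower values (median -0.62), STYXL1 was called lower with 48.56 FPKM (35.13 to 61.98) against 25.83 FPKM (18.1 to 33.56), and the 1 gene with a higher value was CCL24. No neighbour of CCL2 passed the filter. Of 4 genes tested around CCL5, 3 had lower values, with a median log2 change of -0.54. No exon of these 6 ligand genes overlaps an exon of another gene in GENCODE 44.

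**Figure D5:**
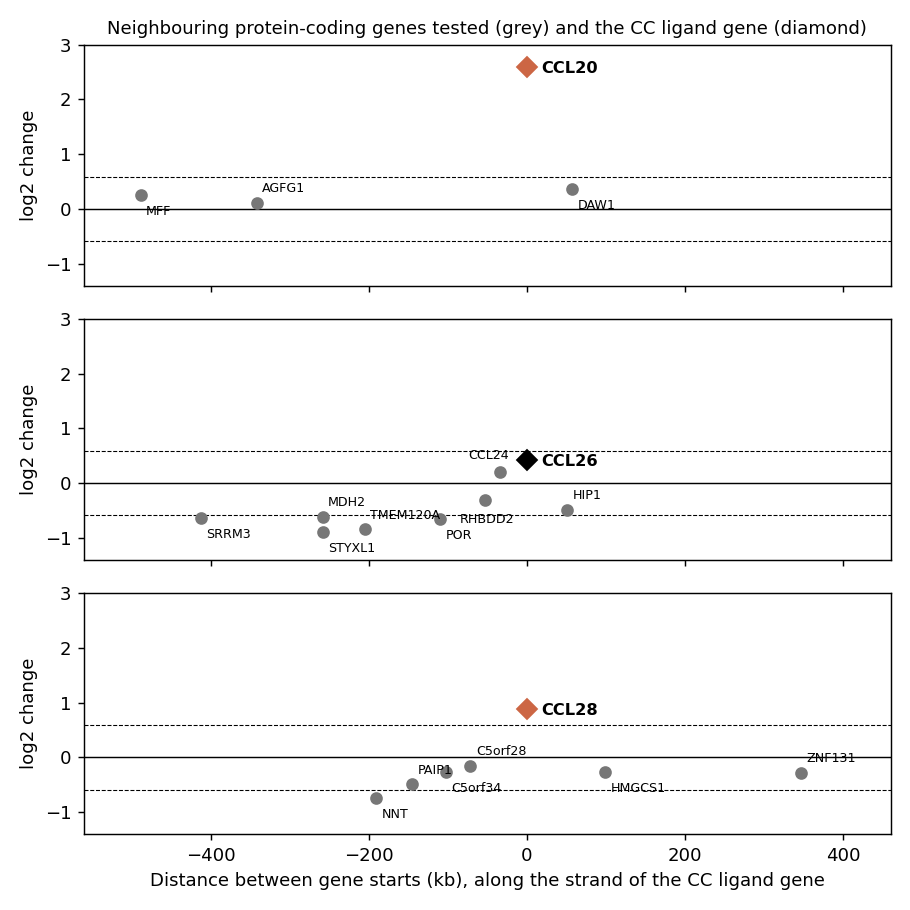
log2 change of FPKM + 1 between LM2-4175 and MDA-MB-231 (vertical axis) for protein-coding genes tested near CCL20, CCL26 and CCL28 (grey circles), by the distance between gene starts in kb (horizontal axis), with the ligand gene as a diamond at 0 (orange, called; black, not called). Dashed lines mark a 1.5-fold change; CCL20 at 2.59 and CCL28 at 0.88 lie above all of their neighbours.

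Genes that act before and after these ligands were taken from further lists. Of 16 transcription factor genes known to regulate chemokine genes, all were tested, 2 were called higher and 1 lower, with a median log2 change of 0.19. Beside this list and the next, 4.67% of all genes tested were called higher and 4.61% lower. CEBPB rose from 5.446 FPKM (3.859 to 7.033) to 22.8 FPKM (17.32 to 28.29). The other gene called higher was JUN, with 26.8 FPKM (20.66 to 32.94) against 42.59 FPKM (32.95 to 52.24). The bounds of JUN were barely apart, so its call stands at its limit. FOS, a partner of JUN in AP-1, fell from 17.64 FPKM (12.61 to 22.68) to 2.987 FPKM (1.837 to 4.137). NFKBIZ, which encodes a nuclear cofactor of NF-kB, stood at 8.898 FPKM (1.77 to 16.03) against 26.45 FPKM (14.8 to 38.11), with overlapping bounds at a log2 change of 1.47. Of 13 genes for inducing cytokines and their receptors, 11 were tested, with 3 called higher and 1 lower and a median log2 change of 0.07. IL1A, which induces CCL20 in epithelial cells, rose from 0.2195 FPKM (0.08331 to 0.3556) to 27.87 FPKM (21.2 to 34.53). IL1B and IL6 were the others called higher. IL1A passed the filter only through its level in LM2-4175, so the filter itself favoured its call. All genes of this list above 0 were tested, 7 with a higher and 4 with a lower value in LM2-4175. The receptor gene IL1R1 fell from 6.951 FPKM (4.577 to 9.324) to 3.057 FPKM (1.915 to 4.2). TNF and IL17A were listed at 0 in both. The share that this move of inducers has in the levels of CCL20 and CCL28 was not tested.

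Several markers of other cells that could supply chemokine transcripts were listed at levels as high as those of the ligands. Of 9 leukocyte markers, 3 were tested and none was called, and PTPRC, CD3E, MS4A1, ITGAM, CD163 and FCGR3A had at most 0.07667 FPKM. The monocyte and macrophage marker CSF1R, a growth factor receptor gene, stood at 2.917 FPKM (1.234 to 4.6) for MDA-MB-231 cells against 0.79 FPKM (0.1763 to 1.404) for LM2-4175 cells. Its value was lower in LM2-4175, with overlapping bounds and a log2 difference of -1.13. The other 2 leukocyte markers tested, CD14 and CD68, had higher values there, with log2 changes of 0.34 and 0.74 and overlapping bounds. CD14, a monocyte coreceptor gene, had 1.172 FPKM (0.6257 to 1.719) and 1.75 FPKM (1.081 to 2.419). The list summed to 111 FPKM in MDA-MB-231 and 182 FPKM in LM2-4175, of which the lysosomal gene CD68, which many cell types express, held 107 and 178.9 FPKM with wide bounds. Of 5 endothelial and fibroblast markers, 2 were tested and both were called lower, and the sums were 11 and 2.26 FPKM. The share called lower over all genes tested was 4.61%. LUM passed the filter only through its level in MDA-MB-231, so the filter itself favoured its call. Without the filter, 2 of the 5 genes had a higher and 3 a lower value in LM2-4175, with a median log2 change of -0.15. PDGFRB fell from 9.444 FPKM (3.863 to 15.02) to 1.912 FPKM (0.5866 to 3.237), and LUM from 1.337 FPKM (0.5575 to 2.116) to 0.1779 FPKM (0.009358 to 0.3464). VWF, CDH5 and DCN had lower bounds of 0 in both. The part of these markers in the levels of CCL2 and the other ligands was not tested. Among the markers of the labelled cell type, ESR1 and PGR had at most 0.03314 FPKM. ERBB2, the other gene behind the triple-negative label, had 34.95 FPKM (20.88 to 49.02) and 22.76 FPKM (12.81 to 32.72). These are RNA levels, which do not measure the protein, so they do not speak to the label. VIM had 1355 and 1768 FPKM, and the epithelial genes KRT8, KRT18 and EPCAM were called lower in LM2-4175. The part of this epithelial difference in the levels of the CC ligands was not tested.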

How the data were processed

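The comparison set LM2-4175 against its parental line. The values that the authors deposited are FPKM of GENCODE 19 genes with lower and upper bounds: reads were aligned to hg19 with TopHat 2.0 at default settings and quantified with Cufflinks, with 1 value made from both libraries of each line. Library scaling, use of strand, treatment of reads with several matches and the level of the bounds are not given in the sources used here, and the table itself gives no depth. The study's supplement lists aligned read pairs per library, which were not used here.

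Changes were computed as log2 of the ratio of (FPKM + 1), with a pseudocount of 1, which compresses the changes of genes near 0, in Python 3.11.15 with NumPy 2.4.6 and pandas 2.3.3, and plotted with Matplotlib 3.10.9. The genes tested had the status OK for each line and averaged 0.5 FPKM or more. The fold of 1.5 is that of the study's methods. Because no value per library was used here, no replicate test, SD or p-value was computed. A standard error was taken as the distance from the FPKM to the upper bound divided by 2, and treated as independent between genes in sums. For genes averaging 0.5 to 10 FPKM, the upper bound exceeded the FPKM by a median of 55.6% for MDA-MB-231 and 53.1% for LM2-4175.

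The 6 genes and all lists were chosen with earlier results of these data known, and 2 listed genes are not reported here. Named are the 6 genes, other CC ligand genes above 0, receptors, listed genes that were called, the nearest gene in level to each ligand, and called neighbours within 500 kb. CCR7, CCRL2, NFKBIZ, CD14, CD68, CSF1R, ERBB2, VIM, MMP3, DPP4 and the genes listed at 0 or near 0 were named after their values were seen. Positions are 1-based, from the table or, for CCL5, from GENCODE 44 on GRCh37, the same build as hg19, to which 55545 of 57815 genes were matched. The calling steps were tested on simulated data. Alternatives were another pseudocount or none, other filters, other scalings and other calling rules.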

Additional observations from a re-analysis of the deposited data

How the results depend on the processing

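No paired analysis was possible because the table gives 1 combined value per cell line and no value per library, and for the same reason no library could be left out. Of 118 alternative values, 103 kept their direction and call or stayed within the limits set, and none changed direction. Much of this was fixed in advance, so these counts do not measure robustness. Other filters and calling rules leave a log2 change as it is, and another pseudocount cannot turn its direction. Counts of genes have no direction, and leaving out CCL7, at 0 in both lines, cannot move the sum. CCL20 was called higher under all 10 alternatives. With a fold of 2 on the scale of FPKM + 1, CCL28 (log2 change 0.88) lost its call. That left 1 of the 6 genes called higher, and 1 of all 28 CC ligand genes, of which 5 were tested. Of all 13911 genes tested, 450 were then called higher and 403 lower. With the fold of 1.5 alone, CCL2 (-0.87) was called lower, as 1 of the 6 genes and 1 of the CC ligand genes. Of all 13911 genes tested, 1434 were then called higher and 1640 lower. With the fold and a difference of over 2 standard errors, CCL2 (-0.87) was again called lower, 1 of the 6 genes and 1 of the CC ligand genes. By that rule 903 of the 13911 genes tested were called higher and 1063 lower. The log2 ratio of the summed levels was 1.30 without CCL2 and 0.43 without CCL20. CCL5 passed the filter under only 2 of 10 alternatives, no filter and TPM scaling, and was called under neither. CCL7, at 0 in both lines, gave no change. Bounds of this width limit what can be read from genes of a few FPKM.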

Other observations

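Among the enzymes known to cleave CC chemokines, 6 of 9 genes were tested and 3 were called higher in LM2-4175. Over all genes tested, 4.67% were called higher and 4.61% lower. Of the 6 enzyme genes tested, MMP2, MMP3 and MMP9 passed the filter only through LM2-4175. Without the filter, 6 of the 9 genes had a higher and 3 a lower value there, with a median log2 change of 0.61. MMP1, a collagenase that trims the CCL2 family, went from 22.65 FPKM (17.13 to 28.18) to 643.3 FPKM (484 to 802.7). MMP2, known to cut CCL7, went from 0.1766 FPKM (0 to 0.4574) to 5.404 FPKM (3.435 to 7.374), and MMP9 was the other gene called. MMP3 had 0.02408 and 4.598 FPKM, but its bounds in LM2-4175 ran from 0 to 17.95. DPP4, which removes the first residues of CCL5, had 1.55 FPKM (0.9826 to 2.118) and 0.804 FPKM (0.3659 to 1.242) and was not called. Of 16 genes of receptor signalling, 13 were tested, none was called higher and GNB2 and ARRB1 were called lower, with log2 changes of -0.80 and -0.74.

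The genes whose pair of levels lay nearest to those of the ligands, by the distance over log2(FPKM + 1) in the 2 cell lines, were PLCB1 for CCL20 (distance 0.0714), BRWD3 for CCL28 (0.0222), PNPLA3 for CCL26 (0.0127), IFITM10 for CCL2 (0.0179) and NAPA-AS1 for CCL5 (0.0807). PLCB1, a phospholipase C gene, had 0.07224 and 5.623 FPKM and was the 1 gene tested within a distance of 0.1 from CCL20. Within the same distance, 33 genes lay around CCL26, 13 around CCL2, 10 around CCL28 and 7 around CCL5. With only 2 points per gene this likeness describes levels and nothing more.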
